A study of Homo sapiens with 9 samples.

Results

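HOX genes encode homeodomain transcription factors and lie in 4 clusters, HOXA, HOXB, HOXC and HOXD. Members were all genes whose platform symbol is HOXA, HOXB, HOXC or HOXD followed by digits only. There were 28 such genes with 44 probe sets, of 19775 genes and 54613 probe sets in all. HOXB was covered fully, with 10 of 10 genes in RefSeq and 19 probe sets, and HOXC with 9 of 9 genes and 9 probe sets. For HOXD, 8 of 9 genes were named by 15 probe sets. For HOXA only HOXA2 had a probe set of its own name, and the other HOXA genes were not analysed here. Where a gene has several probe sets, the one with the highest mean stands for it unless another is named.

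Within a cluster the genes stand in the order in which they are used along the body axis of the embryo, from low paralog numbers at the head end to high numbers at the tail end. Genes of the same paralog number in different clusters descend from a common ancestor and share much of their DNA-binding domain. Adult epithelia keep part of this positional pattern. Polycomb proteins hold silent HOX genes closed, Trithorax and MLL proteins keep active ones open, and retinoic acid switches on genes at the low-numbered end.

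The HOX genes of HuCCT1 cells were described here in cells given an empty vector and in cells given a vector for YAPS127A. HuCCT1 is an established human cholangiocarcinoma line, from a cancer of the bile ducts. YAPS127A is the transcriptional co-activator YAP1 with the S127A change, which makes it constitutively active because a serine that the Hippo pathway phosphorylates is missing. RNA of 4 empty vector samples and 5 YAPS127A samples was hybridised to 9 single-colour arrays, and the values are log2 signals per probe set. Both groups are the same cell line in the same medium, and the labels do not say how long after transfection cells were harvested or whether the samples are separate cultures, so p-values measure only the spread between these samples.

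The array medians lay between 5.95 and 5.97. As checks of the labels, the YAP target ANKRD1 was higher by 2.24 (SE 0.13, limma adjusted p = 3.38e-07), and CCN1, another target, by 0.45 (limma adjusted p = 0.00114). YAP1 itself differed by 0.15 (limma adjusted p = 0.121), and where its probe set lies relative to the vector's insert was not examined. The biliary markers KRT7, KRT19, EPCAM and SOX9 had group means of 12.84 or more, although SOX9 fell by 0.25 and the ductal genes CFTR and SPP1 fell by 2.72 and 1.37. Of listed markers of other cell types, 3 of 4 for hepatocytes, 2 of 5 for fibroblasts, 2 of 3 for endothelial cells and 2 of 4 for leukocytes lay above the background level given in the next paragraph in either group. ALB, COL1A2 and PTPRC lay under it in both, with group means of at most 4.56. Other members of these lists, LYZ, CD14 and COL1A1, lay above it with the empty vector. The lists therefore do not settle which other cell types are absent. LYZ fell from 7.42 to 5.18, CD14 from 6.19 to 5.75 and COL1A1 from 8.21 to 7.51, and none of these lists was called higher in any member. Their part in the HOX results was not tested. Whether signal came from fewer cells or from less RNA per cell cannot be told apart in bulk RNA. The gap between the 3′ and 5′ actin control probe sets, a sign of RNA quality, was largest in empty vector replicate 3 (1.69) and YAPS127A replicate 1 (1.58), against at most 1.18 elsewhere.

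Among the HOX genes analysed, those that carried signal were mostly in the HOXB cluster. Only HOXA2 was analysed in HOXA, so HOXA cannot be compared with HOXB. The file holds no detection calls, so 107 probe sets of olfactory receptor genes, which biliary cells are not known to use, set a background level, the 95th percentile of their group means (5.32 with the empty vector, 5.34 with YAPS127A). Of 10 HOXB genes, 9 lay above it in both groups by their brightest probe set, all but HOXB13, a gene of the prostate and the tail end of the body. HOXB8 did so narrowly (5.45 with the empty vector and 5.44 with YAPS127A), and its other probe set lay under the level (3.63 and 3.93). HOXA2 lay above the background level too, with a mean of 8.96 and 8.64 in the empty vector and YAPS127A groups. In HOXC only HOXC5 and HOXC6 did so, and in HOXD only HOXD13 in both groups and HOXD9 with the empty vector alone. The HOXC means ran from 3.09 to 6.25 with the empty vector and from 3.15 to 6.11 with YAPS127A, and those of HOXD from 3.01 to 5.40 and from 2.90 to 5.37. Signals of different probe sets were not ranked against each other, since each has its own response.

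**Figure D1:**
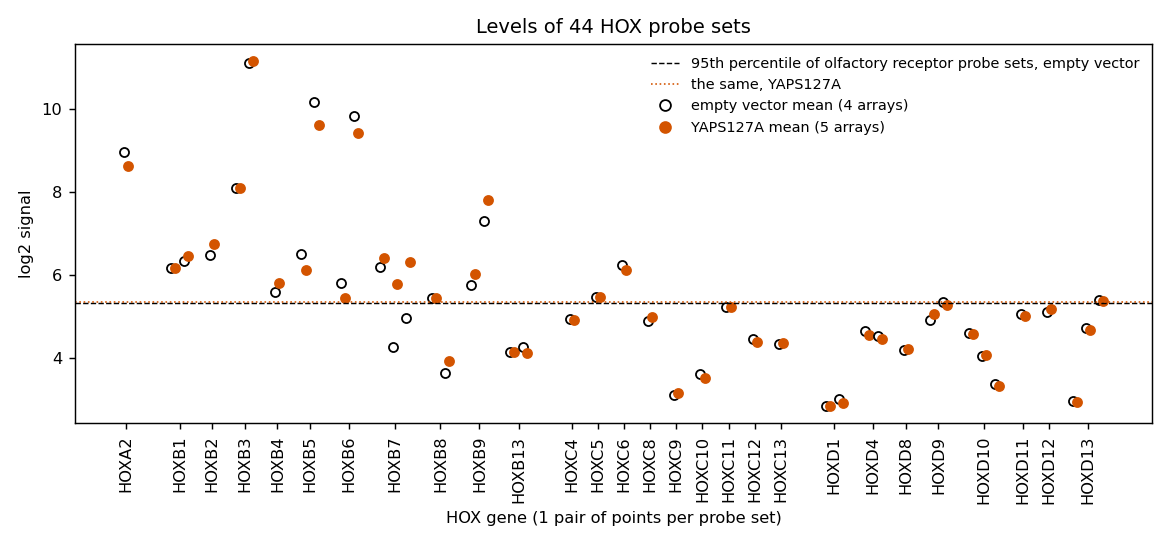
Mean log2 signal (y axis) of each of 44 HOX probe sets in 4 empty vector arrays (open circles) and 5 YAPS127A arrays (filled circles), by gene and cluster (x axis), with the 95th percentile of olfactory receptor probe sets in each group as lines at 5.32 and 5.34. The HOXB probe sets and HOXA2 stand mostly above the lines, and those of HOXC and HOXD mostly below or close to them.

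Comparison of the vectors by cluster called 6 of 28 HOX genes (21.4%), 3 higher and 3 lower with YAPS127A, in limma with Benjamini-Hochberg adjustment over all probe sets and a threshold of 0.05. Over all genes 28.7% were called, 14.5% higher and 14.2% lower. The HOX share was below that of all genes. Among genes above the background level in either group the share was 42.9% for HOX (6 of 14) and 38.2% for all such genes. The median difference was -0.02 for HOX genes and 0.00 for all genes, and the median size without sign was 0.09 and 0.13. All called HOX genes but HOXA2 lay in the HOXB cluster, with 3 of 10 higher (HOXB2, HOXB4 and HOXB9) and 2 lower (HOXB5 and HOXB6). By probe set, 5 of 44 were higher and 4 lower, where 11.9% and 12.0% of all probe sets were, or 23.9% in either direction. Groups did not overlap for 4 of the 28 genes, 2 higher and 2 lower, and for 28.3% of all genes.

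**Figure D2:**
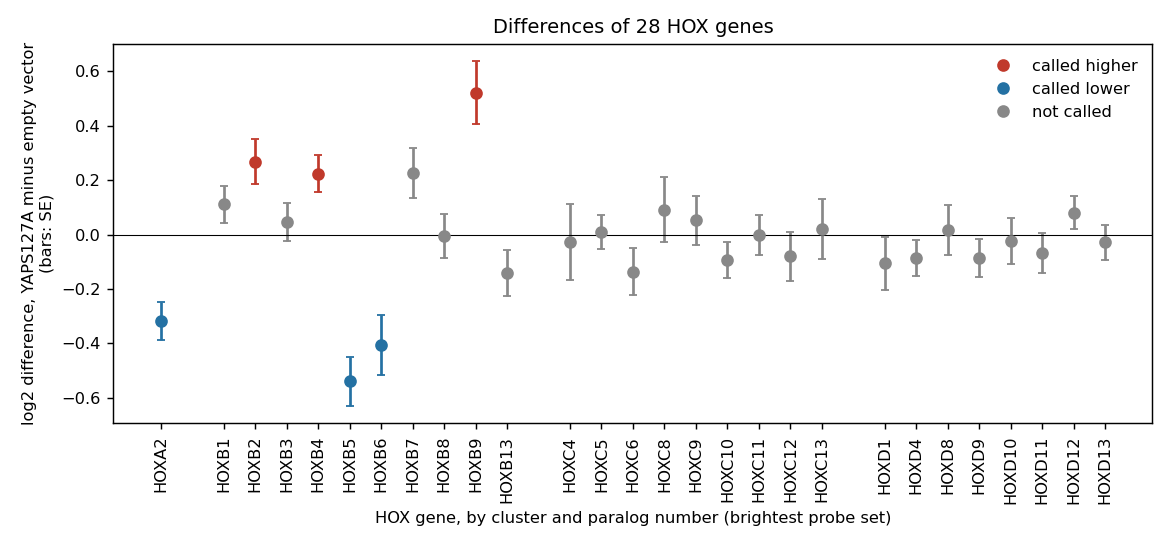
Log2 difference between YAPS127A and empty vector (y axis, bars are SE) for the brightest probe set of each of 28 HOX genes, ordered by cluster and paralog number (x axis), in red where called higher, blue where lower and grey where not called. HOXB9 stands highest at 0.52 and HOXB5 lowest at -0.54, while all HOXC and HOXD genes lie between -0.14 and 0.09.

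HOXA2, which patterns the hindbrain and the second pharyngeal arch, fell. Its signal was 8.87, 9.03, 9.08 and 8.87 in empty vector replicates 1 to 4 and 8.68, 8.54, 8.70, 8.62 and 8.68 in YAPS127A replicates 1 to 5. Every YAPS127A array lay below every empty vector array. The means were 8.96 ± 0.11 (SD, n = 4) and 8.64 ± 0.07 (SD, n = 5), a fall of 1.25-fold (log2 difference -0.32, SE 0.07, limma adjusted p = 0.0052). Up to 50 neighbouring genes on chromosome 7, HOX genes left out, had a median difference of +0.25, opposite to HOXA2. With that median subtracted on each array HOXA2 was at -0.57. The subtraction assumes that a gene's signal follows that of the genes around it, and where it does not it can itself make a difference.

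The sequence before the HOXA2 start is shown as the promoter of the only called HOX gene that the promoter table holds, and that of HOXB1, a HOXB gene that was not called, stands beside it. Both are 250 bases from RefSeq on GRCh38.p14, on the minus strand, and neither window overlaps an annotated gene. HOXA2 is at chr7:27102684-27102933 and HOXB1 at chr17:48531012-48531261. Capitals mark matches to TGATNNAT, the motif of PBX and HOX proteins bound together, on either strand.
HOXA2: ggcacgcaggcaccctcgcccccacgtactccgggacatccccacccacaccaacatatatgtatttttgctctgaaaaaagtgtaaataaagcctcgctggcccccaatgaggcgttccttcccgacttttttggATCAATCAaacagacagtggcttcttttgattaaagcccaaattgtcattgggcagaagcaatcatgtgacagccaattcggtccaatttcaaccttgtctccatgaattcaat
HOXB1: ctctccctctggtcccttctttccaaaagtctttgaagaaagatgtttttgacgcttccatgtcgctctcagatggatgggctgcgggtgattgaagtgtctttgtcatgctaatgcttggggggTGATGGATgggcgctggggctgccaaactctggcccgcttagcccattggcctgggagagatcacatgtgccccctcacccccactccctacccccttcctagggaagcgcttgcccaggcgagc
Each window held 1 match, and 6.47% of 35114 promoter windows of this length held at least 1. Neither window held CATTCC, the core motif of TEAD factors that YAP1 binds, which 11.9% of the windows held on either strand. AGGTCA, the half-site of retinoic acid receptors, was in 12.1% of the windows and in neither of these. Of the 11 HOX genes described here that the promoter table holds, 6 had a CATTCC match (HOXC4, HOXC5, HOXD4, HOXD8, HOXD10 and HOXD13), 3 a TGATNNAT match (HOXA2, HOXB1 and HOXD11) and none an AGGTCA match. None of the 6 genes with CATTCC was called, but all 6 lie in HOXC or HOXD, where no gene was. Since HOXA2 was the only called gene among the 11, these counts cannot relate the motif to the calls. A match is only a match of letters, and in the windows printed here no motif overlapped another.

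In the HOXB cluster, genes called higher and lower lay close together. Ordered by position in RefSeq on chromosome 17, HOXB2 and HOXB4 at the low-numbered end rose slightly, HOXB5 and HOXB6 next to them fell, and HOXB9 at the far side rose. HOXB7, between HOXB6 and HOXB8, was not called at its brightest probe set, but its other probe sets rose by 1.36 and 1.504. HOXB1, HOXB3, HOXB8 and HOXB13 were not called. The calls of HOXB2, HOXB4 and HOXB6 were lost under some of the alternatives. The neighbouring genes had a median difference of -0.12. The mean level over the 10 genes of the cluster ranged from 7.23 to 7.33 over empty vector arrays and from 7.26 to 7.35 over YAPS127A arrays, and these ranges overlap.

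HOXB5, a gene of the embryonic trunk and foregut, had the deepest fall. Its brightest probe set gave 10.19, 10.20, 10.11 and 10.19 in the empty vector arrays and 9.83, 9.79, 9.61, 9.43 and 9.49 in the YAPS127A arrays. The groups did not overlap, and the means of 10.17 ± 0.04 (SD, n = 4) and 9.63 ± 0.18 (SD, n = 5) differed 1.45-fold (log2 difference -0.54, SE 0.09, limma adjusted p = 0.000892). The second HOXB5 probe set fell as well, from 6.51 ± 0.06 (SD, n = 4) to 6.12 ± 0.15 (SD, n = 5), or by 0.39 (limma adjusted p = 0.00417), again without overlap. HOXB5 was called under all 19 alternatives that could be run, with differences between -0.61 and -0.42.

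HOXB6, the adjacent trunk gene, fell less firmly. The brightest probe set gave 9.62, 9.96, 10.01 and 9.75 with the empty vector and 9.73, 9.35, 9.26, 9.33 and 9.45 with YAPS127A. YAPS127A replicate 1 lay above the lowest empty vector array, so the groups overlap. The log2 difference was -0.41 (SE 0.11, limma adjusted p = 0.0177), and the other probe set differed by -0.34 without a call (adjusted p = 0.0924). Its call was lost without empty vector replicate 2 (-0.37, adjusted p = 0.0577), without empty vector replicate 3 (-0.35, adjusted p = 0.0564), with the replicate block (-0.41, adjusted p = 0.0878), after subtracting the median of neighbours (-0.29, adjusted p = 0.0515) and on the probe set without the suffix _s_at.

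The non-coding transcript HOXB-AS3, whose RefSeq span overlaps both HOXB5 and HOXB6, fell with them. Its brightest probe set read 8.17, 8.09, 8.32 and 8.19 with the empty vector and 7.72, 7.46, 7.53, 7.80 and 7.49 with YAPS127A. No array of one group lay within the range of the other, and the log2 difference was -0.59 (SE 0.09, limma adjusted p = 0.000313), or 1.51-fold lower. A second probe set fell by 0.45 (limma adjusted p = 0.00287), and the other 3 differed by -0.02, -0.13 and +0.07 without a call. As the mean of its probe sets HOXB-AS3 was at -0.22. Which strand each probe set reads is not stated in the sources used here, so signals of HOXB5, HOXB6 and the overlapping transcript cannot be told apart.

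HOXB9, of the lower trunk, was the only HOX gene called higher under all 20 alternatives (differences of 0.39 to 0.64). Single probe sets of HOXB7, described below, were also called higher under every alternative run for them. The HOXB9 signal was 7.15, 7.36, 7.25 and 7.44 in empty vector arrays and 7.76, 8.14, 7.93, 7.50 and 7.79 in YAPS127A arrays. The groups did not overlap, although YAPS127A replicate 4 lay close to the highest empty vector array. The means were 7.30 ± 0.13 (SD, n = 4) and 7.82 ± 0.23 (SD, n = 5), a 1.44-fold rise (log2 difference 0.52, SE 0.12, limma adjusted p = 0.00581). The other HOXB9 probe set differed by 0.25 and was not called (adjusted p = 0.197).

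HOXB2 and HOXB4 rose by small amounts. HOXB2, a hindbrain gene, read 6.35, 6.47, 6.66 and 6.50 with the empty vector and 6.64, 6.77, 6.66, 6.94 and 6.79 with YAPS127A, a log2 difference of 0.27 (SE 0.08, limma adjusted p = 0.0355) with overlapping groups. The HOXB2 call was lost without any one of empty vector replicates 1, 2 and 4 and YAPS127A replicates 2, 4 and 5, where the difference was 0.22 to 0.27 and the adjusted p = 0.0623 to 0.111. HOXB4, known for expanding blood stem cells, read 5.52, 5.49, 5.68 and 5.69 with the empty vector and 5.90, 5.77, 5.81, 5.84 and 5.75 with YAPS127A, a log2 difference of 0.22 (SE 0.07, limma adjusted p = 0.0304) without overlap. The HOXB4 call was lost without any one of empty vector replicates 1 and 2 and YAPS127A replicates 1, 3 and 4, with differences of 0.19 to 0.22 and an adjusted p of at most 0.0963. Without YAPS127A replicate 3 it missed the threshold narrowly. It was also lost without both arrays of the largest actin gap (0.23, adjusted p = 0.0540). With the replicate block neither passed, HOXB2 at 0.26 (adjusted p = 0.0942) and HOXB4 at 0.24 (adjusted p = 0.0755). After the neighbours' median was subtracted HOXB4 was at 0.34.

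**Figure D3:**
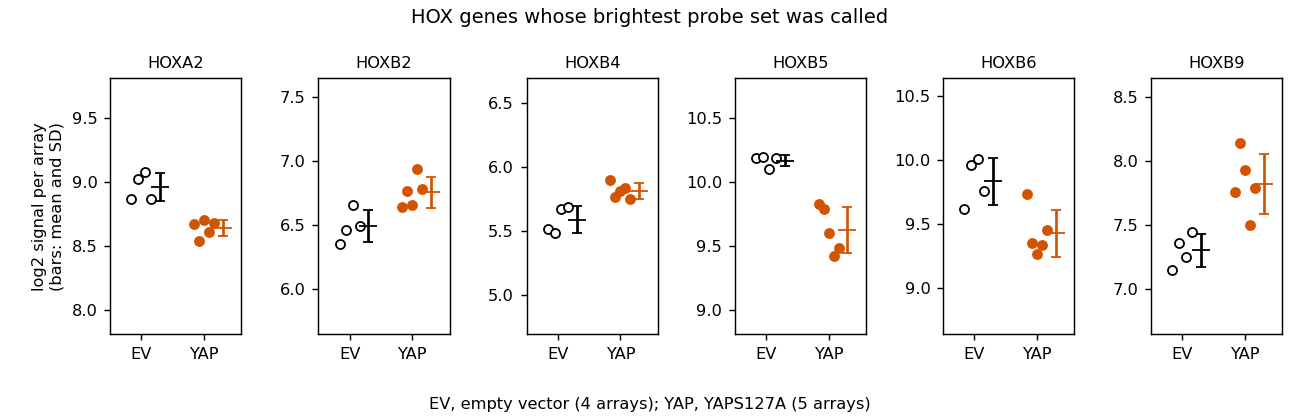
Log2 signal on each array (y axis, equal spans) of the 6 HOX genes whose brightest probe set was called, with 4 empty vector arrays (open circles) and 5 YAPS127A arrays (filled circles) and the mean and SD beside them. The groups separate for HOXA2, HOXB4, HOXB5 and HOXB9 and overlap for HOXB2 and HOXB6.

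HOXB7, a trunk gene between HOXB6 and HOXB8, gave the largest rise of any HOX probe set, but its probe sets disagree. Probe set 216973_s_at read 4.96, 4.62, 5.18 and 5.08 with the empty vector and 6.10, 6.30, 6.67, 6.33 and 6.19 with YAPS127A, a log2 difference of 1.36 (SE 0.13, limma adjusted p = 1.62e-05), or 2.56-fold. Probe set 204779_s_at read 4.54, 3.52, 4.77 and 4.25 and then 5.74, 5.98, 6.09, 5.68 and 5.37, a log2 difference of 1.504 (SE 0.22, limma adjusted p = 0.00042), or 2.84-fold. In both every YAPS127A array lay above every empty vector array. Both were called higher under all 16 alternatives run for them, with differences of 1.24 to 1.49 for 216973_s_at and 1.25 to 1.68 for 204779_s_at. With the empty vector both lay under the background level and with YAPS127A both lay above it, so the size of the rise depends on the background.

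The brightest HOXB7 probe set, 204778_x_at, was not called. It read 6.27, 6.07, 6.29 and 6.12 with the empty vector and 6.58, 6.16, 6.54, 6.38 and 6.39 with YAPS127A, with overlapping groups and a log2 difference of 0.23 (SE 0.09, limma adjusted p = 0.104). The other probe sets differed by 1.36 and 1.504 on the same arrays, which exceeds the difference of the brightest by 1.13 and 1.28. Since both started from levels under the background, how far the transcript changes they read disagree cannot be given exactly. The suffixes _s_at and _x_at mark probe sets that can also read other transcripts, and all HOXB7 probe sets carry one. The brightest carries _x_at and the others carry _s_at. As the mean of its probe sets HOXB7 was higher by 1.03 (limma adjusted p = 4.96e-05), and the brightest one alone passed without YAPS127A replicate 2 (0.29, adjusted p = 0.0243), with the actin gap as a covariate (0.27, adjusted p = 0.0403) and after subtraction of its neighbours (0.35, adjusted p = 0.0135).

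**Figure D4:**
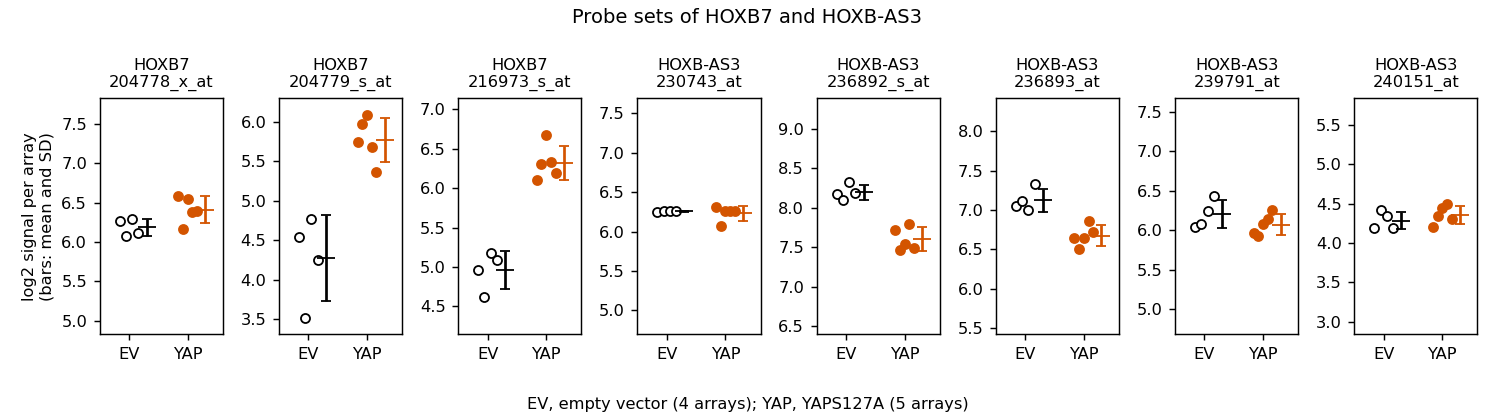
Log2 signal on each array (y axis, equal spans) of the 3 probe sets of HOXB7 and the 5 of HOXB-AS3, with 4 empty vector arrays (open circles), 5 YAPS127A arrays (filled circles) and the mean and SD beside them. The groups separate for HOXB7 probe sets 204779_s_at and 216973_s_at (higher) and for HOXB-AS3 probe sets 236892_s_at and 236893_at (lower).

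Other HOXB genes were not called. HOXB3, a gene of the hindbrain and pharynx, differed by 0.05 (95% interval -0.11 to 0.20), from 11.12 ± 0.08 (SD, n = 4) to 11.16 ± 0.10 (SD, n = 5). HOXB1, of the hindbrain, differed by 0.11 (95% interval -0.04 to 0.26) and HOXB8 by -0.01 (95% interval -0.18 to 0.17). Of the alternatives, HOXB1 passed only with the neighbours subtracted (0.23, adjusted p = 0.0215). HOXB13 was under the background level in both groups at each of its probe sets.

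The HOXB cluster also holds 2 microRNA genes, MIR10A and MIR196A1, whose products pair with HOX messages among others. Their mature forms are shown because they lie within the cluster, MIR10A between the called genes HOXB4 and HOXB5, and MIR196A1 between HOXB9, which was called, and HOXB13, which was not. Sequences are from RefSeq on GRCh38.p14, minus strand, with the seed (bases 2 to 8) in capitals.
miR-10a-5p: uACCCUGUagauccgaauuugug
miR-196a-5p: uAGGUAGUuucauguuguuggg
The mature form of MIR10A lies at chr17:48579904-48579926 and that of MIR196A1 at chr17:48632532-48632553. The array does not report mature forms. A probe set named for MIR10A, whose gene lies within the span of HOXB3, differed by -0.10 (95% interval -0.36 to 0.16, limma adjusted p = 0.621).

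No HOXC or HOXD gene was called. The 9 HOXC genes differed by -0.14 to 0.09 with a median of 0.00, and the 8 HOXD genes by -0.11 to 0.08 with a median of -0.05. The 95% intervals of single genes reached from -0.33 to 0.35 in HOXC and from -0.32 to 0.22 in HOXD. For HOXC6, which lay above the background level, the signal was 6.15, 6.21, 6.45 and 6.19 with the empty vector and 6.18, 6.19, 6.11, 6.20 and 5.90 with YAPS127A, with overlapping groups and a difference of -0.14 (95% interval -0.33 to 0.05). Where a probe set lies under that level a change of the transcript may not be detectable. With no call in HOXC or HOXD and only HOXA2 analysed in HOXA, only paralog group 2 could hold 2 called members. In paralog group 2 both members were called, with HOXA2 lower (-0.32) and HOXB2 higher (0.27). For paralog 5, HOXC5 differed by 0.01 (95% interval -0.13 to 0.15), and for paralog 9, HOXC9 by 0.05 and HOXD9 by -0.09, while paralog 4 had HOXC4 at -0.03 and HOXD4 at -0.09. The differences between paralogs were not tested.

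Non-coding transcripts of the clusters gave 11 of 18 listed members with a named probe set, of which 1 rose and 1 fell, with a median of 0.04. The 18.2% called compare with 28.7% of all genes. Only 5 of the 11 lay above the background level in either group, and 40% of these were called, against 38.2% of all such genes. Besides HOXB-AS3, HOXA-AS3 rose. Its span overlaps HOXA3, HOXA5, HOXA6 and HOXA7, and it read 6.05, 6.12, 6.13 and 5.85 with the empty vector and 6.49, 6.43, 6.47, 6.49 and 6.48 with YAPS127A, a log2 difference of 0.43 (SE 0.07, limma adjusted p = 0.000613) without overlap. The surrounding genes on chromosome 7 lay higher by 0.25, and after subtracting them HOXA-AS3 was at 0.18 (adjusted p = 0.0564), so that no transcript of the list was then called higher. The list's count of lower calls ran from 1 to 3 over the alternatives. HOXA-AS2, over HOXA3 and HOXA4, was not called at its brightest probe set (-0.18, adjusted p = 0.0934), although another fell by 0.53 (limma adjusted p = 0.00211). HOTTIP was not called at its brightest probe set either (0.05), but its probe set 244553_at fell by 0.35 (limma adjusted p = 0.0280). That probe set lay under the background level in both groups and was called under 9 of 16 alternatives. HOTAIR, transcribed from the HOXC cluster, had means of 2.27 and 2.24, under the background level.

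Cofactors that bind DNA together with HOX proteins, the PBX, MEIS and PKNOX factors, were mostly not called. Probe sets named 8 of 9, of which none rose, 1 fell and 7 were not called, with a median of -0.03. The 12.5% called compare with 28.7% of all genes. Of the 7 above the background level 14.3% were called, against 38.2% of all such genes. PBX3 fell from 8.89, 9.07, 8.88 and 8.87 to 8.52, 8.10, 8.23, 8.40 and 8.34. The groups were clearly apart, with a log2 difference of -0.61 (SE 0.09, limma adjusted p = 0.000348), or 1.53-fold lower. MEIS2 differed by 0.04 and PBX2 by 0.06, neither called.

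Among these lists of HOX regulators, retinoic acid genes held the deepest falls. Probe sets named 15 of 18, and 6 fell, 9 were not called and none rose, with a median of -0.03, while 14.2% of all genes fell. Of the 11 above the background level in either group 54.5% were called, against 38.2% of all such genes. RARB, a retinoic acid receptor and itself a target of retinoic acid, had 9.32, 9.31, 9.25 and 9.49 with the empty vector and 6.98, 7.29, 7.43, 7.06 and 7.20 with YAPS127A. It fell 4.43-fold (log2 difference -2.15, SE 0.09, limma adjusted p = 3.15e-08), far outside the spread of either group. DHRS3, which turns retinaldehyde back to retinol, fell by 1.20 (limma adjusted p = 2.22e-06), and CRABP2, which carries retinoic acid to the nucleus, by 0.76 (limma adjusted p = 1.39e-05).

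The other falls in that list were in uptake and synthesis. STRA6, the receptor for retinol uptake, fell by 0.65, RDH10, which makes retinaldehyde, by 0.62, and ALDH1A3, which makes retinoic acid, by 0.48. The receptor genes RARA (+0.01) and RXRA (+0.04) were not called. Averaged over their probe sets, RARB was at -0.87, RDH10 at -0.38, STRA6 at -0.40 and ALDH1A3 at -0.29, and less its neighbours RDH10 was at -0.32. On a probe set without the suffix _s_at STRA6 lost its call (-0.33, adjusted p = 0.127).

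Polycomb genes moved both ways. Probe sets named 23 of 27, of which 2 rose, 6 fell and 15 passed no threshold, with a median of -0.08. All 23 lay above the background level, and the 34.8% called compare with 38.2% of all genes above it. CBX2, a reader of the repressive mark, fell 1.97-fold (log2 difference -0.98, SE 0.08, limma adjusted p = 4.12e-06), from 7.95 ± 0.10 (SD, n = 4) to 6.98 ± 0.12 (SD, n = 5), and PCGF5, of a variant PRC1 complex, rose by 0.64. PCGF3 fell by 0.34, JARID2 by 0.36 and SUZ12, a core subunit of PRC2, by 0.24, and MTF2 rose by 0.34. After subtraction of the neighbours' median MTF2 was at -0.093 and SUZ12 at -0.030, neither called (adjusted p = 0.407 and 0.774), and PCGF5 was at 0.28. The count called higher was then 1, and it was 5 without dim probe sets and 4 with the mean of a gene's probe sets. The mean of its probe sets put CBX2 at -0.34, and JARID2 lost its call on a probe set without the suffix _s_at (-0.29, adjusted p = 0.166). SUZ12 also lost its call with the replicate block (-0.25, adjusted p = 0.0615).

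In the list of Trithorax and MLL proteins and the demethylases that remove the repressive mark, 4 of 17 fell, none rose and 13 were not called, with a median of -0.17. All 17 lay above the background level, and the 23.5% called compare with 38.2% of all genes above it. KMT2C fell by 0.44, KDM6B by 0.46, RBBP5 by 0.40 and KMT2D by 0.28. RBBP5 was at -0.17 less its neighbours and lost its call (adjusted p = 0.142). With the replicate block 2 of the 4 were left, as KDM6B (-0.48, adjusted p = 0.0519) and KMT2D (-0.24, adjusted p = 0.0794) did not pass, and the mean of their probe sets put them at -0.30 and -0.16.

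**Figure D5:**
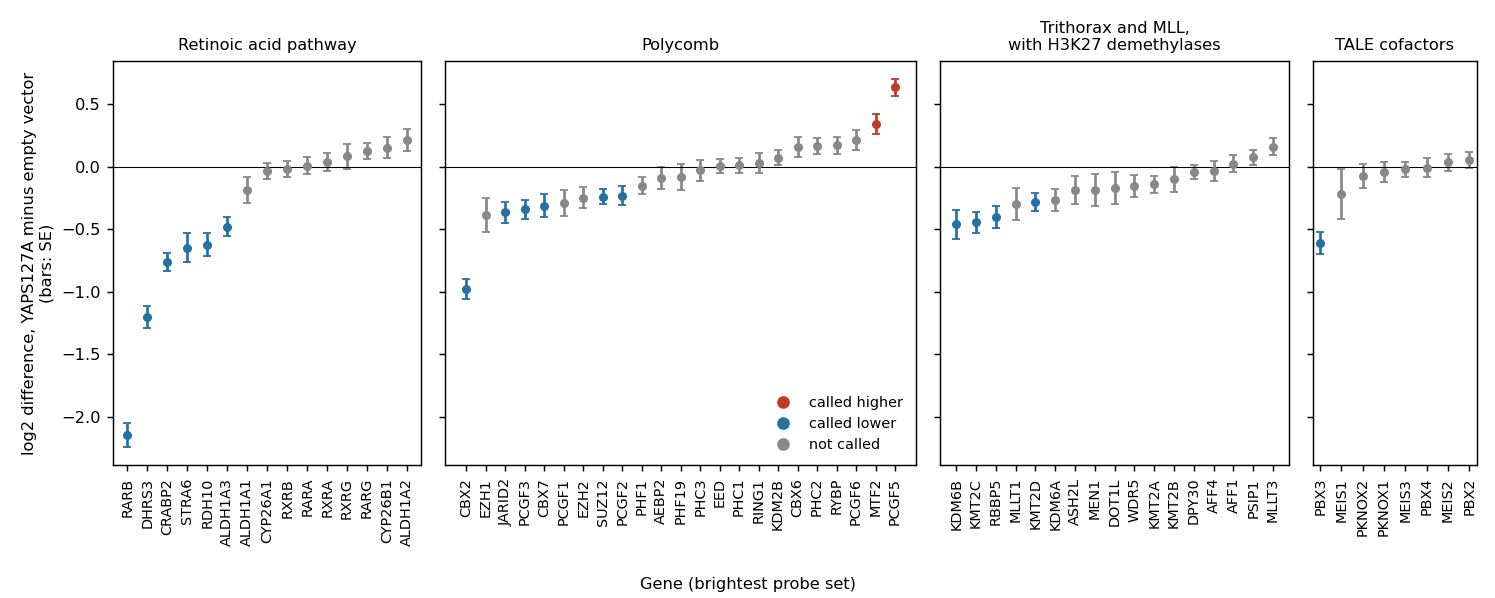
Log2 difference between YAPS127A and empty vector (y axis, bars are SE) for the members of 4 lists of genes that act on or with HOX genes (x axis, brightest probe set), in red where called higher, blue where lower and grey where not called. RARB stands lowest at -2.15, CBX2 lowest in the Polycomb list at -0.98, and PCGF5 highest at 0.64.

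Genes on the chromosome around the clusters gave 22 of 23 listed members, of which 5 rose and 2 fell, with a median of 0.10. That is 31.8% called, against 28.7% of all genes. Among the 20 above the background level in either group it was 35%, against 38.2% of all such genes. The counts were 4 higher and 4 lower with the neighbours subtracted, 9 higher and 2 lower with the mean of a gene's probe sets, and 5 higher and 1 lower with the replicate block. Around HOXA, SNX10 rose by 0.63 and HIBADH by 0.37, and less their neighbours HIBADH was at 0.10, not called (adjusted p = 0.263), and SNX10 at 0.39. Around HOXB, SKAP1 rose by 0.58 (SE 0.09, limma adjusted p = 0.000392) and SNX11 fell by 0.38. Around HOXC, CBX5, a heterochromatin protein gene, rose by 0.53 and CALCOCO1 by 0.46, while the other gene of the 2 that fell lies there too. Around HOXD none of LNPK, MTX2, HNRNPA3, ATF2 and ATP5MC3 was called, with differences of 0.05 to 0.13. Of the CDX and other related homeobox genes, which include regulators of HOX expression, none of 12 was called, against 28.7% of all genes. Their median was -0.02, although 4 were called lower once the neighbours' median was subtracted. Only 6 of the 12 lay above the background level in either group, where 38.2% of all genes were called. A change of the others may not be detectable.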

How the data were processed

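Total RNA was labelled with biotin after amplification, per the labels' protocols. The authors deposited log2 signals per probe set, a scale judged from their range of 1.62 to 14.8, since no header states it. The normalization, summarisation and background correction were not given in the labels or file headers. There were 0 columns of other samples. Leaving out 62 control probe sets, 54613 were compared over all 9 arrays by the lmFit and eBayes steps of limma 3.58.1 under R 4.3.3, without a covariate, with Benjamini-Hochberg adjustment over all of them and 11.4 total degrees of freedom. In the platform annotation 41091 probe sets had 1 gene, 1801 had several and 11721 had none. RefSeq (GRCh38.p14) matched 41037 by gene ID to update symbols, and was otherwise used for gene order and the printed sequences. The members and lists were chosen with earlier results of these data known. All HOX genes could be named, with array values for those with a called probe set, and from other lists up to 6 called members by p-value. A planned comparison of homeodomains was not run. The fit was tested on simulated data. Same-numbered samples were checked for pairing and did not deviate together (correlations of -0.46 to 0.03 over 4 pairs), so no pairing was used. Errors of differences are standard errors (SE). Figures used matplotlib 3.10.9 in Python 3.11.15. The alternatives were quantile normalization, centring, leaving out dim probe sets, trend and robust eBayes, array weights, the replicate block, the actin gap as a covariate or both arrays of largest gap left out, leaving out each array, averaging a gene's probe sets, probe sets without the suffixes _s_at and _x_at, and removal of the median of up to 50 neighbours. Printed adjusted p-values are limma's.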

Additional observations from a re-analysis of the deposited data

Results flagged for a closer look

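In 19 of 150 groups of values (12.7%) 1 array stood apart from the others by a gap that Dixon's test puts beyond its 95% limit, where chance gives about 1 in 20. In 11 of these groups some of the other arrays share 1 deposited value to the last decimal. Of the 44 HOX probe sets, 27 (61.4%) hold such equal values on some of the 9 arrays, against 45.4% of all probe sets. Among called members, HOXB5 read 10.1 on empty vector replicate 3, below 10.19 to 10.20 on the others. PBX3 read 9.07, CRABP2 12.1 and KMT2D 11.9 on empty vector replicate 2, and HIBADH 12.3 on YAPS127A replicate 2.

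The others were HOX probe sets without a call. In HOXB, HOXB8 read 4.54 on YAPS127A replicate 2, HOXB9 6.44 at probe set 216417_x_at on YAPS127A replicate 4, and HOXB13 4.37 on YAPS127A replicate 5 and, at its other probe set, 3.97 on YAPS127A replicate 1. In HOXC, HOXC5 read 5.41 on empty vector replicate 4, HOXC9 3.35 on YAPS127A replicate 4, HOXC12 4.69 on YAPS127A replicate 2 and HOXC13 4.78 on YAPS127A replicate 3. In HOXD, HOXD1 read 3.22 on empty vector replicate 4, HOXD4 4.37, HOXD9 5.21 and HOXD11 4.79 on YAPS127A replicate 2, and HOXD9 (at its other probe set) 4.77 and HOXD13 5.48 on empty vector replicate 2.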

How the results depend on the processing

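HOXA2, HOXB5 and HOXB9 kept their direction and call under each alternative that could be run, and of 537 values of HOX genes 19 lost the call, 5 gained it and 0 turned the sign of a called gene. Some uncalled genes with differences near 0, such as HOXC4 and HOXB8, did turn sign. HOXB7 probe sets 204779_s_at and 216973_s_at stayed called higher under all 16 alternatives run for them. The count of HOX genes called higher, 3, was 1 with the replicate block, 5 with the neighbours' median removed and 1 to 3 with an array left out, and all of these lay in HOXB. The count called lower, 3, was 1 on probe sets without _s_at or _x_at and 2 to 3 with an array left out. In HOXB the 2 genes called lower became 1 with the replicate block, 1 with the neighbours' median removed, 0 on probe sets without those suffixes, where HOXB5 has none, and 1 to 2 with an array left out. HOX probe sets called higher, 5, were 2 without dim probe sets, 3 with the replicate block and 3 to 5 with an array left out. MTF2 turned to -0.093 with the neighbours' median removed. Where the cause of a change is not named, the cause was not tested. Probe sets under the background level limit what can be seen in HOXC and HOXD.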

Other observations

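The annotation gives 3 further probe sets to HOXD3, HOXD4 and another gene together, so they were assigned to none. They differed by 0.17, -0.02 and 0.08 (limma adjusted p = 0.170, 0.939 and 0.455) and lay under the background level in both groups.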
